A study of Mus musculus with 6 samples.

Results

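The 10 genes described here encode the machinery that releases calcium from the endoplasmic reticulum (ER), senses the loss, lets calcium in through the plasma membrane and pumps it back. They were taken by symbol from the 27179 genes of the deposited expression table, as the ER calcium sensors Stim1 and Stim2, the plasma membrane channels Orai1, Orai2 and Orai3, the IP3 receptors Itpr1, Itpr2 and Itpr3, and the SERCA pumps Atp2a2 and Atp2a3. RNA was sequenced from YFP+Mac-1+c-Kit+ leukemia-initiating cells (LICs), the immature fraction sorted from bone marrow in a mouse model of acute myeloid leukemia. The model is made by infecting Lin- fetal liver cells with a retrovirus that carries the fusion oncogene MLL-AF9 together with YFP, and by transplanting them into irradiated mice. All samples carry the labels C57BL/6 and 8 weeks of age, 3 of them with the genotype Asic3-/- (Asic3-null) and 3 with the genotype WT. Asic3 encodes an acid-sensing ion channel, and the knockout was present in the donor cells before transformation. The study's methods describe its experiments in general as biological repeats, but no label ties a library to its own mouse, so p-values measure the spread between these libraries, part of which may be technical. One question of the study was whether loss of ASIC3 alters calcium signaling through STIM1 in LICs, and the comparison of the labelled genotypes is the one these libraries allow.

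In store-operated calcium entry, phospholipase C makes IP3, IP3 opens its receptors in the ER membrane, and the fall of calcium inside the ER makes STIM proteins cluster and open ORAI channels at the plasma membrane. SERCA pumps then return calcium from the cytosol to the ER at the cost of ATP. The route is the main path of calcium entry in many blood cells, where it feeds calmodulin, calcineurin and CaM kinases. Each step is served by paralogs that differ in calcium affinity or regulation.

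The values are RPKM, reads scaled by gene length and by library size, so genes can be set against each other within a library. The values above 0 corresponded to whole numbers of reads, and the library size inferred in this way lay between 1947168 and 2381861 reads, at which 1 read in a gene of 2 kb is worth 0.21 to 0.257 RPKM. The targeted gene ran against its labels, with Asic3 at 9.12, 4.11 and 6.58 RPKM under the Asic3-null label and at 1.22, 1.85 and 0.435 RPKM under the WT label. The sexes separated as well, with Eif2s3y, Ddx3y, Kdm5d and Uty of the Y chromosome summing to 0 RPKM in each null-labelled library and to 81.4 to 118.2 RPKM in each WT-labelled one. Genotype and sex cannot be told apart here, every direction given is that of the labels, and the groups are called null-labelled and WT-labelled for that reason. Of 10 neutrophil markers 9 were tested, and all 9 were lower in the null-labelled libraries (limma, adjusted p under 0.05), with a summed level of 211.3 to 348.2 against 3816 to 4260 RPKM, and their part in any result was not tested. The sort marker Itgam, which encodes a chain of Mac-1, had 12.9, 12.3 and 16.9 RPKM against 89.5, 85.7 and 55.1 RPKM and was also called. Kit was present in every library, at 14.4, 17.9 and 20.4 RPKM against 9.09, 15.3 and 8.97 RPKM. It leaned higher in the null-labelled libraries, but the groups overlapped (log2 fold change 0.64, adjusted p from limma 0.219). Over the 6 libraries T cell markers summed to 2.29 to 5.94 RPKM, with Cd3e, Cd4 and Cd8a at 0, and erythroid markers to 0.972 to 7.43 RPKM. B cell markers summed to at least 37.3 RPKM in each library, with Ms4a1 at 0, platelet markers to 18.1 to 32.9 RPKM, with Pf4 and Ppbp at 0, and mast cell markers to 27.5 to 102.6 RPKM, nearly all of it Cpa3, with Mcpt4, Cma1, Tpsb2 and Fcer1a at 0. Of 3 platelet markers tested 1 was called, Gp1bb, with 0.621, 0.805 and 2.04 against 8.90, 4.43 and 5.47 RPKM (adjusted p from limma 0.0249). The others were not called and had log2 fold changes above 0, with 0.98 for Itga2b and 0.08 for Itgb3.

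All 10 genes were detected in all 6 libraries, and none of them passed the test for a difference between the labelled genotypes. In the limma fit over the 12037 genes whose mean reached 1 RPKM, 0 of 10 had an adjusted p under 0.05, where 3.35% of all tested genes did, 0.523% being higher and 2.82% lower in the null-labelled libraries. An unadjusted p under 0.05 was reached by 0 of the 10 against 15.9% of all tested genes, and limma-voom on the recovered reads also called 0 of them. The largest log2 fold change on the log2(RPKM + 1) scale was -0.24, for Itpr2, and the median over the 10 was 0.016 against 0.034 over all tested genes. Without regard to sign the median difference was 0.14 on that log2 scale, against 0.21 over all tested genes. The groups failed to overlap for 1 of the 10, Itpr1, against 22.6% of all tested genes. Since RNA of sorted populations was measured, fewer cells that express a gene and less RNA per cell cannot be told apart.

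**Figure D1:**
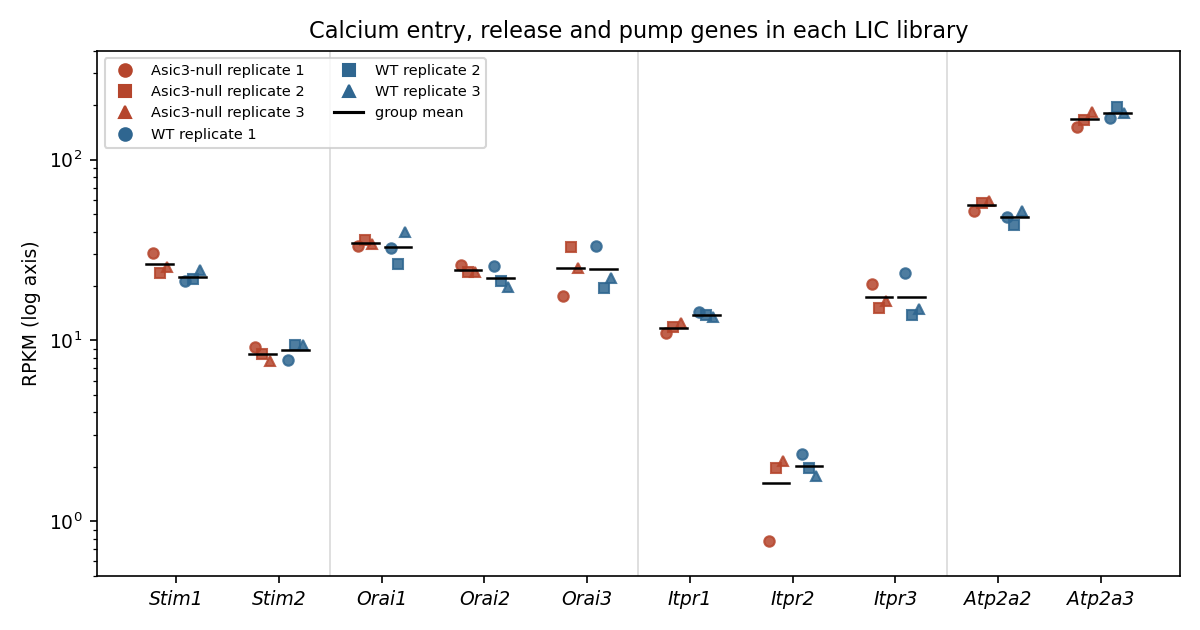
The mRNA level of each of the 10 genes in each library, in RPKM on a log axis, for the null-labelled (red) and the WT-labelled (blue) libraries, with the replicate shown by the marker and the group mean by a black line. The levels run from 0.778 RPKM (Itpr2) to 196.2 RPKM (Atp2a3), and the points of the groups interleave for every gene except Itpr1.

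Stim1 (Entrez 20866, chromosome 7 of GRCm38.p6, 102261514 to 102437319, plus strand), the main sensor of ER calcium, had 30.3, 23.5 and 25.6 RPKM in the null-labelled libraries and 21.2, 21.9 and 24.6 RPKM in the WT-labelled ones. Asic3-null replicate 1 was the highest library, and the lowest null-labelled library lay below the highest WT-labelled library, so the groups overlapped. The means were 26.5 ± 3.5 and 22.6 ± 1.8 RPKM (SD, n = 3 in each group), a 1.16-fold difference with a 95% interval of 0.914 to 1.48 in the limma fit. With a log2 fold change of 0.22 (standard error 0.15) the adjusted p from limma was 0.532, and over 14 alternatives the estimate lay between 0.12 and 0.29. Stim1 had between 154 and 253 reads per library, and its variance within groups was 2.49 times that of counting alone.

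Stim2 (Entrez 116873, chromosome 5, 53998523 to 54121057, plus strand), the paralog with the higher sensitivity to small losses of ER calcium, was lower than Stim1 in all 6 libraries. It had 9.15, 8.47 and 7.72 RPKM in the null-labelled libraries and 7.75, 9.41 and 9.38 RPKM in the WT-labelled ones. The ranges overlapped almost fully, and the log2 fold change was -0.06 (95% interval -0.46 to 0.34, adjusted p from limma 0.906). The spread of Stim2 was no wider than counting 80 to 109 reads per library gives.

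Stim1 was thus the dominant STIM, with 73.8% of the summed STIM RPKM on average over the libraries and 70.0% to 76.8% in single ones. Its RPKM was 2.83 times that of Stim2 on average (2.33 to 3.32 times in single libraries), with Stim1 higher in 6 of 6 libraries and an exact sign-flip permutation p of 0.03125, the smallest that 6 libraries allow (0.050 after adjustment over 8 paralog pairs, not under the threshold of 0.05). The share of Stim1 was 76.8%, 73.5% and 76.8% in the null-labelled libraries and 73.2%, 70.0% and 72.4% in the WT-labelled ones. The lowest null-labelled share exceeded the highest WT-labelled share by less than 1 percentage point, so the groups did not overlap. The difference of 3.86 percentage points had an exact permutation p of 0.10, the smallest that 3 against 3 allow (two-sided, 0.20 after adjustment over 4 families), and it kept its sign in every alternative, between 2.90 and 4.96 points.

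Orai1 (Entrez 109305, chromosome 5, 123015074 to 123030452, plus strand) encodes the pore subunit of the classical store-operated current. Its level was 33.5, 35.9 and 34.1 RPKM in the null-labelled libraries and 32.3, 26.6 and 40.0 RPKM in the WT-labelled ones. The highest and the lowest library were both labelled WT, and the null-labelled libraries lay between them. Orai1 had a log2 fold change of 0.08 (95% interval -0.29 to 0.46, adjusted p from limma 0.849), which turned to -0.057 without WT replicate 2. The annotation places Gm2479 on the opposite strand over exons of Orai1, and since the libraries do not mark strand, reads of both genes cannot be told apart.

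Orai2 (Entrez 269717, chromosome 5, 136147456 to 136170697, minus strand) encodes a channel subunit that can join ORAI1 in mixed channels and lowers their current. It had 26.1, 23.8 and 23.9 RPKM against 25.7, 21.2 and 19.6 RPKM, with 2 of the WT-labelled libraries below all null-labelled ones and WT replicate 1 above 2 of the null-labelled ones. That gave a log2 fold change of 0.15 (95% interval -0.20 to 0.50, adjusted p from limma 0.680), which stayed between 0.07 and 0.26 in the 14 alternatives.

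Orai3 (Entrez 269999, chromosome 7, 127769815 to 127775150, plus strand), the channel subunit found only in mammals, had one of the widest spreads of the 10 genes. It had 17.5, 33.0 and 25.2 RPKM in the null-labelled libraries and 33.1, 19.6 and 22.2 RPKM in the WT-labelled ones. A low and a high library occurred under both labels, and the range within each group spanned most of the range of the gene. With a log2 fold change of 0.0063 (95% interval -0.58 to 0.60, adjusted p from limma 0.995), Orai3 changed sign in 6 of 14 alternatives. After the counting error was taken off, the coefficient of variation within groups was 28.0% for Orai3, higher than that of 95.2% of the 5395 tested genes with a mean of at least 100 reads, whose median was 11.5%. The reads behind these values ran from 76 to 157 per library.

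Orai1 had the highest mean RPKM of the channels, with 41.2% of the family's sum against 30.2% for Orai3 and 28.6% for Orai2, but its lead was narrow. It was above Orai2 in 6 of 6 libraries, by 1.44 times on average (exact sign-flip permutation p = 0.03125, 0.050 adjusted over 8 pairs). It was above Orai3 in 5 of 6 libraries, by 1.37 times on average (exact sign-flip permutation p = 0.0625, 0.0714 adjusted), and WT replicate 1 had slightly more Orai3 than Orai1. Orai3 and Orai2 could not be ranked, with Orai3 higher in 4 of 6 libraries and a mean ratio of 1.05 (exact sign-flip permutation p = 0.719). The order depends on dividing by length, since Orai2 transcripts are longer and Orai1 had the most reads of the family in 0 of 6 libraries. The share of Orai1 was 41.1 ± 2.3% in the null-labelled libraries and 41.3 ± 6.9% in the WT-labelled ones (SD, n = 3 in each group), a difference of -0.211 percentage points (exact permutation p = 1.0, two-sided).

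The 300 bases around the start of transcription are shown for the dominant sensor and for the channels that open to it, because the study also looked at how transcription of Stim1 is controlled. They are RefSeq windows of GRCm38.p6, from 250 bases before to 50 after the annotated start, printed 5′ to 3′ on the strand of the gene, and 8 of the 10 genes had such a window. Capitals mark the core of the MEIS family motif (TGACAG), the short site bound by CREB (TGACG) and the full CREB site (TGACGTCA, which holds the short site), each searched on both strands. The windows lie at chr7:102267569-102267868 (+) for Stim1, where this start lies inside the annotated span of the gene, chr5:123014824-123015123 (+) for Orai1, chr5:136170607-136170906 (-) for Orai2 and chr7:127769565-127769864 (+) for Orai3.
Stim1: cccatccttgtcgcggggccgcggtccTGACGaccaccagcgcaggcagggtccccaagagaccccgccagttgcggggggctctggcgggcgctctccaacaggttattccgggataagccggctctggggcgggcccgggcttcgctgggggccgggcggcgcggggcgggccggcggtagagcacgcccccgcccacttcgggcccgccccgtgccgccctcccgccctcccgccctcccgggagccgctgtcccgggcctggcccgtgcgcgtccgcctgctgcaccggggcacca
Orai1: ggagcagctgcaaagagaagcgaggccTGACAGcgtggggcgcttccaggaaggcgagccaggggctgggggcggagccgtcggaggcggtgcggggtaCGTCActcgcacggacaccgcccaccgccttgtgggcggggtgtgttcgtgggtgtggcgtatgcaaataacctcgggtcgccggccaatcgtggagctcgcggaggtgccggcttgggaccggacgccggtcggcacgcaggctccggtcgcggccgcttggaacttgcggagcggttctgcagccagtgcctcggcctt
Orai2: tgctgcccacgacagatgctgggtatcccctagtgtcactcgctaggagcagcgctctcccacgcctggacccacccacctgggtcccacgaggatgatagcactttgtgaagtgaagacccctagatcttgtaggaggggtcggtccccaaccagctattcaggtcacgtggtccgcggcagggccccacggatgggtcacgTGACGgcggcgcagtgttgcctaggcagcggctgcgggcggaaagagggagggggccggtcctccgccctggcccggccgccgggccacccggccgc
Orai3: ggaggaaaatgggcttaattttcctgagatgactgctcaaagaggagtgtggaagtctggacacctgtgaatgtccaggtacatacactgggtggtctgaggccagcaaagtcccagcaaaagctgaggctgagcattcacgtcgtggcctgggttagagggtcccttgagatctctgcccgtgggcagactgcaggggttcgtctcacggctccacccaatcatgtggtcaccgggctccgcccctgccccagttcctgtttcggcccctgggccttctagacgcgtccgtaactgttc
The Stim1 window held 1 short CREB site, from 223 to 219 bases before the start, and 8 GC boxes (GGGCGG on either strand, left in lower case), which lay between 121 and 12 bases before the start. The Orai1 window held 1 MEIS core, 223 to 218 bases before the start, 1 short CREB site on the other strand and 3 GC boxes. Orai2 held 1 short CREB site from 47 to 43 bases before the start and 2 GC boxes, and Orai3 held none of the capitalised motifs and 1 GC box. Over the 32851 RefSeq windows of 27025 genes, 19.2% held the MEIS core, 20.8% the short CREB site, 1.79% the full CREB site and 35.7% a GC box. These shares count windows with at least 1 match, so single matches of the kinds found are common. How common a window with 8 GC boxes is was not tested. The letters also differ in composition, with 38 CpG in the Stim1 window, 36 in Orai1, 24 in Orai2 and 11 in Orai3, against a median of 7. A match in a window is a description of the letters and shows no binding.

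The IP3 receptors are the ER channels that release calcium when IP3 binds, and they differ in their sensitivity to IP3. Itpr3 (Entrez 16440, chromosome 17, 27057002 to 27122223, plus strand) had 20.6, 15.0 and 16.5 RPKM in the null-labelled libraries and 23.5, 13.8 and 14.9 RPKM in the WT-labelled ones. Replicate 1 was the highest library under both labels, and the groups overlapped fully, with a log2 fold change of 0.03 (95% interval -0.48 to 0.53, adjusted p from limma 0.973). The coefficient of variation beyond counting was 23.6%, above that of 90.3% of the tested genes with a mean of at least 100 reads. Itpr3os on the opposite strand and Mir7677 on the same strand share exon positions with Itpr3.

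Itpr1 (Entrez 16438, chromosome 6, 108213083 to 108551116, plus strand) was the only gene of the 10 whose groups did not overlap. It had 11.0, 11.8 and 12.4 RPKM in the null-labelled libraries and 14.3, 13.9 and 13.5 RPKM in the WT-labelled ones. Every null-labelled library lay below every WT-labelled library, at a mean of 11.8 ± 0.7 against 13.9 ± 0.4 RPKM (SD, n = 3 in each group), and the exact permutation p was 0.10, the smallest possible. The log2 fold change was -0.23 (standard error 0.15, 95% interval -0.57 to 0.12, adjusted p from limma 0.505), a 0.855-fold level, and it lay between -0.26 and -0.18 in all 14 alternatives. The recovered reads were 252, 278 and 288 against 298, 267 and 315, so that on reads alone, before scaling to library size, the groups did overlap through WT replicate 2, the smallest library. Gm44040 and Gm44101 lie over its exons on the opposite strand.

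Itpr2 (Entrez 16439, chromosome 6, 146108299 to 146502258, minus strand) was the least abundant of the 10 genes, at 0.778, 1.97 and 2.15 RPKM against 2.34, 1.97 and 1.77 RPKM. Asic3-null replicate 1, with 15 reads, stood below the other libraries, which had 32 to 42 reads. The log2 fold change of -0.24 (95% interval -0.93 to 0.44, adjusted p from limma 0.742) became 0.016 without that library. The pseudocount of 1 shrinks a gene at this level, and Itpr2 had a log2 fold change of -0.41 (95% interval -1.49 to 0.68) with a pseudocount of 0.1 and of -0.42 (-1.19 to 0.34) with limma-voom on the recovered reads. The within-group coefficient of variation beyond counting was 28.0%, from a mean of 34.0 reads per library.

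Itpr3 made up 53.9% of the IP3 receptor RPKM on average, Itpr1 40.4% and Itpr2 5.75%. The lead of Itpr3 over Itpr1 was 1.34 times and held in 5 of 6 libraries (exact sign-flip permutation p = 0.0625, 0.0714 adjusted over 8 pairs), with WT replicate 2 at nearly equal levels. Both stood well above Itpr2 in 6 of 6 libraries, Itpr3 by 9.86 times and Itpr1 by 7.38 times on average (exact sign-flip permutation p = 0.03125 for each, 0.050 adjusted). The share of Itpr3 was 56.3 ± 6.3% in the null-labelled libraries and 51.5 ± 6.3% in the WT-labelled ones (SD, n = 3 in each group), with overlapping groups (exact permutation p = 0.40, two-sided).

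The SERCA pumps refill the ER. Atp2a3 (Entrez 53313, chromosome 11, 72961169 to 72993043, plus strand) encodes SERCA3, the lower-affinity pump that blood cells express beside the housekeeping pump SERCA2, and it was the most abundant of the 10 genes. It had 150.7, 165.9 and 184.1 RPKM in the null-labelled libraries and 169.0, 196.2 and 179.9 RPKM in the WT-labelled ones, from 1607 to 1991 reads per library. The lowest libraries were null-labelled ones, but Asic3-null replicate 3 lay above all WT-labelled libraries except WT replicate 2. Its log2 fold change was -0.12 (95% interval -0.41 to 0.16, adjusted p from limma 0.672), and its mean level exceeded that of 96.4% of all tested genes.

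Atp2a2 (Entrez 11938, chromosome 5, 122453513 to 122502225, minus strand), which encodes SERCA2, had 51.8, 57.6 and 59.1 RPKM in the null-labelled libraries and 48.2, 43.3 and 52.1 RPKM in the WT-labelled ones. Only Asic3-null replicate 1 and WT replicate 3 overlapped, and the group means were 56.2 ± 3.9 and 47.9 ± 4.4 RPKM (SD, n = 3 in each group). Its log2 fold change of 0.23 (standard error 0.13, 95% interval -0.07 to 0.53) was the closest of the 10 to the threshold, with an adjusted p from limma of 0.433. Gm43361 shares exon positions with Atp2a2 on the opposite strand. Stim2, Orai1, Orai2 and Atp2a2 lie on chromosome 5, as Asic3 does, but at 29.6, 98.6, 111.7 and 98.0 Mb from it.

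Atp2a3 was the dominant SERCA, with 76.9% of the RPKM of these pumps on average and 3.36 times the level of Atp2a2 (6 of 6 libraries, exact sign-flip permutation p = 0.03125, 0.050 adjusted over 8 pairs). Its share was 74.4%, 74.2% and 75.7% in the null-labelled libraries and 77.8%, 81.9% and 77.5% in the WT-labelled ones. Each null-labelled library lay below each WT-labelled library, by a difference in means of -4.32 percentage points (exact permutation p = 0.10, the smallest possible, 0.20 adjusted over 4 families). The difference kept its sign in every alternative, between -5.10 and -2.91 points, and neither Atp2a2 nor Atp2a3 was called on its own, with estimates of opposite sign. The sum of both pumps was 223.1 ± 20.4 against 229.6 ± 11.4 RPKM (SD, n = 3 in each group).

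**Figure D2:**
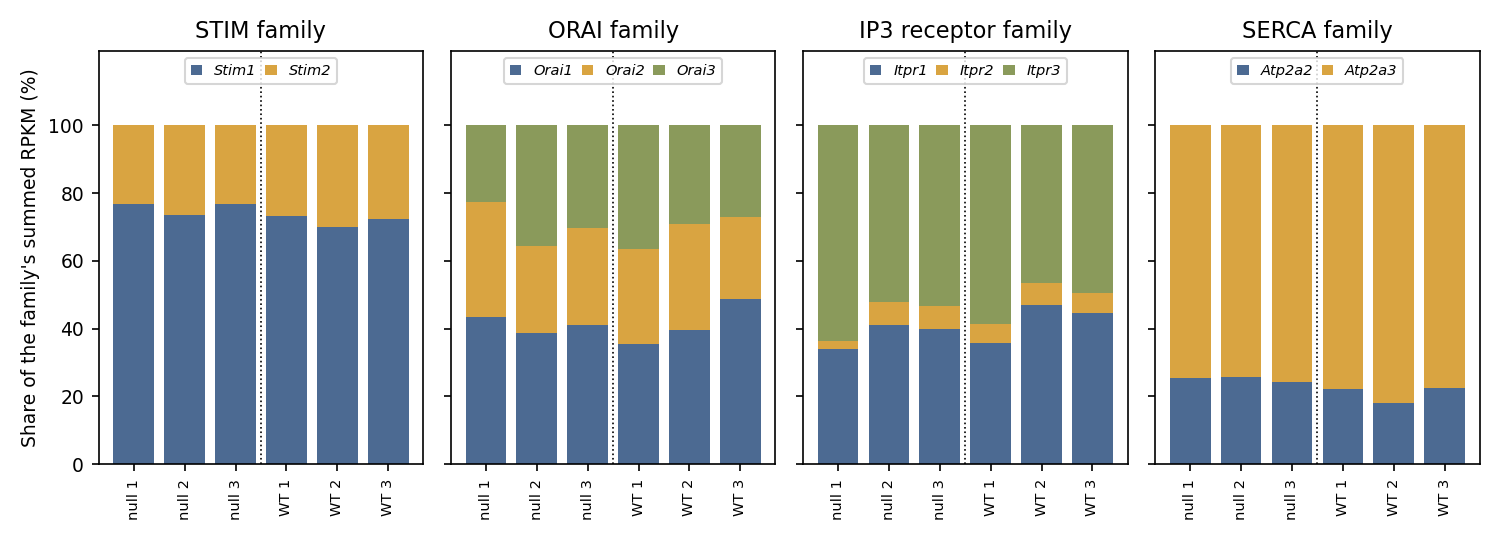
The share of each paralog in the summed RPKM of its family, in percent, for each library, with the null-labelled libraries left of the dotted line and the WT-labelled ones right of it. Stim1 and Atp2a3 hold 70.0% to 76.8% and 74.2% to 81.9% of their families, while Orai1, with 35.4% to 48.8%, and Itpr3, with 46.5% to 63.6%, lead by less.

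**Figure D3:**
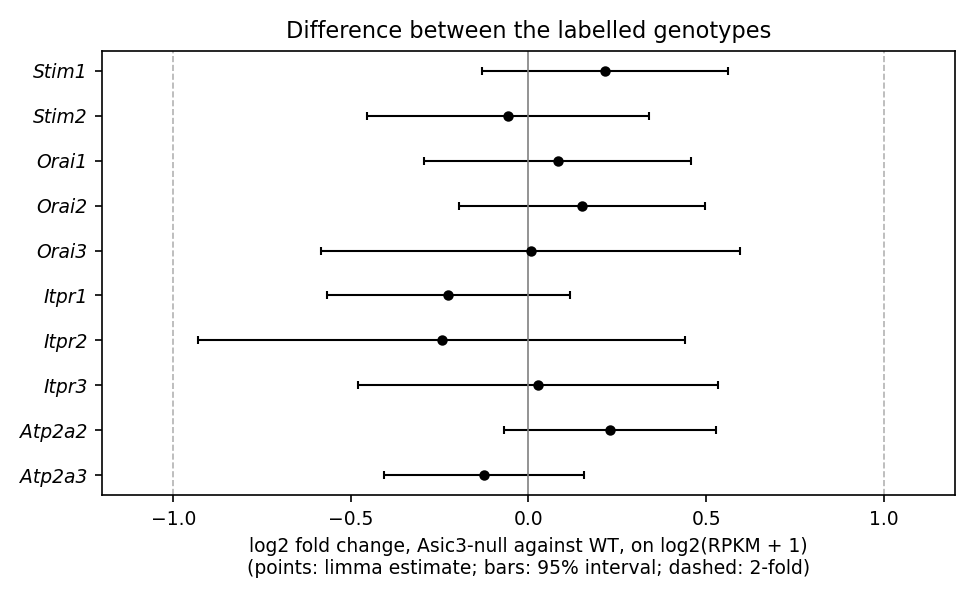
The log2 fold change of each of the 10 genes between the null-labelled and the WT-labelled libraries, on log2(RPKM + 1), with the limma estimate as a point and its 95% interval as a bar. On this scale every interval includes 0 and lies within a 2-fold change, drawn as dashed lines, the widest being that of Itpr2 from -0.93 to 0.44, which passes 2-fold lower with a pseudocount of 0.1 or with limma-voom.

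Across families the order of the mean levels over the 6 libraries was Atp2a3 with 174.3 RPKM, Atp2a2 with 52.0, Orai1 with 33.7, Orai3 with 25.1, Stim1 with 24.5, Orai2 with 23.4, Itpr3 with 17.4, Itpr1 with 12.8, Stim2 with 8.65 and Itpr2 with 1.83 RPKM. Neighbours kept this order in 6 of 6 libraries for Atp2a3 over Atp2a2, Atp2a2 over Orai1, Orai2 over Itpr3, Itpr1 over Stim2 and Stim2 over Itpr2. Orai3, Stim1 and Orai2 could not be ordered, with Orai3 above Stim1 in 2 of 6 libraries and Stim1 above Orai2 in 4 of 6. Atp2a3 alone stood far above the entry and release genes, while Atp2a2 and Orai1 were closer, at 52.1 and 40.0 RPKM in WT replicate 3. The STIM sum was 34.9 ± 4.0 and 31.4 ± 2.5 RPKM and the ORAI sum 84.3 ± 7.8 and 80.1 ± 11.9 RPKM in the null-labelled and the WT-labelled libraries (SD, n = 3 in each group). The ratio of STIM to ORAI RPKM was 0.419 ± 0.085 and 0.399 ± 0.075, and differed between libraries of one label by more than between the labels. The spread beyond counting was small for most of these genes, with a coefficient of variation of 0% for Itpr1 and Stim2, 6.90% for Atp2a2, 7.70% for Orai2, 8.44% for Atp2a3, 8.63% for Stim1 and 11.3% for Orai1.

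Around these genes, 79 others of calcium handling were listed, 51 of which passed the filter, and 1 was called, Plcd3. Plcd3 encodes a delta-type phospholipase C that makes IP3, and it had 6.70, 4.29 and 4.64 RPKM in the null-labelled libraries and 1.73, 1.69 and 1.53 RPKM in the WT-labelled ones. All null-labelled libraries were above all WT-labelled libraries, at a log2 fold change of 1.21 (95% interval 0.67 to 1.75, adjusted p from limma 0.0301), from 10 to 47 reads per library. The call did not survive the loss of any single library, with an adjusted p from limma of 0.0612 to 0.114, while the log2 fold change stayed between 1.04 and 1.31, and it held in 5 of 13 alternatives. One gene called among 51 stands beside 3.35% of all tested genes. At an unadjusted p under 0.05 there were 7 of the 51 genes, 6 higher and 1 lower, against 15.9% of all tested genes, and for 13 of the 51 the groups did not overlap, against 22.6%.

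No other group of the list had a called gene. Among the regulators of STIM and ORAI, 5 of 7 were tested with a median log2 fold change of -0.14, and Saraf, which turns STIM1 off again after refilling, was the most abundant at 63.0 ± 7.2 against 60.5 ± 1.0 RPKM (SD, n = 3 in each group; adjusted p from limma 0.883). Calr, a major calcium-binding protein of the ER lumen and the most abundant gene of its group of 7, had 835.1, 1106 and 878.2 RPKM against 517.7, 842.4 and 710.5 RPKM, overlapping between the groups (log2 fold change 0.46, adjusted p from limma 0.277). The 7 genes of that group had a median log2 fold change of -0.0070. Of the 9 phospholipases C 6 were tested with a median log2 fold change of -0.21, led by Plcg2 with a mean of 74.1 RPKM, well above Plcd3. The mitochondrial uniporter complex had 9 of 10 genes tested with a median log2 fold change of 0.12, led by its small subunit gene Smdt1 at 202.3 RPKM. Calcineurin and NFAT genes had 8 of 11 tested with a median log2 fold change of 0.03, led by the catalytic subunit gene Ppp3ca at 58.8 RPKM. The enzymes of IP3 metabolism and the regulators of its receptors had 9 of 12 tested with a median log2 fold change of 0.01, led by the inositol monophosphatase gene Impa2 at 73.3 RPKM.

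Several other channels and pumps of calcium were at or near 0. Of the TRPC genes, Trpc1, Trpc4, Trpc6 and Trpc7 were listed at 0 in every library, and Trpc2, with a mean of 7.96 RPKM, was the only one tested and shares exon positions with Xndc1 and Xntrpc on the same strand. Of the ryanodine receptors, which release calcium from the ER without IP3, Ryr1 had a mean of 1.53 RPKM and Ryr2 was listed at 0. The muscle pump gene Atp2a1 had a mean of 1.40 RPKM, far below Atp2a3, and its regulator gene Sln was listed at 0. Atp2b4, which encodes a pump that carries calcium out of the cell, led the plasma membrane and Golgi pumps at 15.9 RPKM, of which 3 of 6 were tested with a median log2 fold change of -0.24. Atp2b4 itself had a log2 fold change of 0.62 (19.4 ± 4.1 against 12.3 ± 2.8 RPKM, SD, n = 3 in each group; adjusted p from limma 0.212). Slc8b1, whose product moves calcium out of mitochondria in exchange for sodium, led the exchangers at 82.6 RPKM, while Atp2b3, Atp2c2 and Slc8a3 were listed at 0. Adcy8, Rcan2 and Nfatc4 were also listed at 0 in every library.

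**Figure D4:**
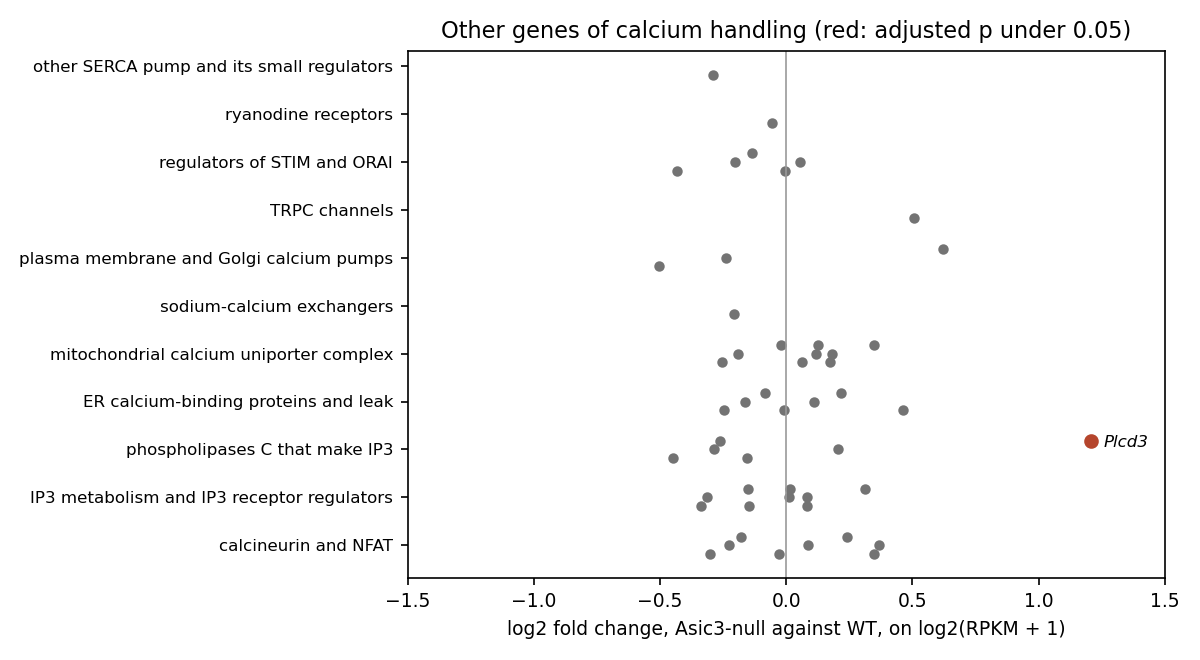
The log2 fold change of the 51 other tested genes of calcium handling between the null-labelled and the WT-labelled libraries, on log2(RPKM + 1), one point per gene and one line per group of the list. Plcd3, in red at 1.21, is the only point with an adjusted p under 0.05.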

How the data were processed

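RNA of sorted LICs was sequenced from 3 libraries labelled Asic3-null and 3 labelled WT, prepared with a kit that keeps no strand information. The submitters' processing notes name CASAVA 1.8.2, TopHat2 2.0.12 and the build GRCm38. The authors deposited RPKM values (reads per length and library size) under Entrez numbers. The counting tool and gene annotation are not given in the sources used here. Symbols came from RefSeq (25275 genes) and GENCODE M21 (18), and 1886 genes had none.

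The 12037 genes whose mean reached 1 RPKM were tested with limma 3.58.1 (R 4.3.3) on log2 values with a pseudocount of 1, using an intensity trend, the genotype label as the only term and Benjamini-Hochberg adjustment at 0.05. The RPKM values of the 16825 genes above 0 gave whole reads within a tolerance of 0.0001 once gene lengths were taken as whole bases. These reads, a median of 83.3 per tested gene and library, served limma-voom and the estimates of spread beyond counting. They carry no molecular identifiers, so such estimates cover counting error only. Paralogs were compared within libraries on log2 RPKM by exact sign-flip permutation over 6 libraries, and shares between labels by exact permutation of 3 against 3, in Python 3.11.15 with numpy 2.4.6 and pandas 2.3.3. The limma step was tested on simulated data, where it recovered 13.4% of 1.5-fold, 71.6% of 2-fold and 100% of 4-fold changes. Of its 130 calls there 7 were false, and it made 0 calls where nothing was changed. The step would thus miss most changes of 1.5-fold or less.

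All 10 genes are named. Of the other calcium genes, those called, the most abundant of each group and those at 0 throughout are named, and a few genes under this rule are not reported here. The genes, lists and markers were chosen with earlier results of these data known. Alternatives were a pseudocount of 0.1, no filter, a filter at a mean of 5 RPKM, quantile normalization, median-ratio scaling, a fit without the trend, the replicate number as a block, limma-voom, each library left out in turn, and shares of reads not divided by length. Lengths of the longest coding transcript in the basic set of GENCODE M21 were added after seeing the data.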

Additional observations from a re-analysis of the deposited data

How the results depend on the processing

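None of the 10 genes was called in any of 14 alternatives in which it was tested (Itpr2 was not tested at a mean RPKM of at least 5). Fits with a single library left out gave log2 fold changes of -0.057 to 0.23 for Orai1, -0.20 to 0.24 for Orai3, -0.40 to 0.016 for Itpr2 and -0.11 to 0.25 for Itpr3, and that of Orai3 was -0.0069 with median-ratio scaling and -0.020 with quantile normalization. The difference in the Orai1 share ran from -3.12 to 3.58 percentage points in such fits, and the other shares kept their sign. Per base of the longest coding transcript, the mean log2 ratio was 1.23 for Stim1 over Stim2, 0.56 for Orai1 over Orai3, 0.57 for Orai1 over Orai2, 3.79 for Itpr3 over Itpr2, 3.37 for Itpr1 over Itpr2 and 1.40 for Atp2a3 over Atp2a2, each with an adjusted p of 0.0417 (exact sign-flip permutation). Orai1 was then highest in 6 of 6 libraries. Each of these pairs had an unadjusted p of 0.03125 in that permutation test, the smallest that 6 libraries allow. On RPKM all of them except Orai1 over Orai3 (0.0625) had the same unadjusted p. The adjusted p therefore fell from 0.050 to 0.0417 through that 1 pair, and not through stronger evidence for the others.

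Of the other calcium genes 0 were called with a mean RPKM of at least 5, where Plcd3 was not tested, and 0 in every fit without 1 library, with 3 to 5 of them at an unadjusted p under 0.05 (limma). With no filter 1 was called, Plcb1, which was lower in the null-labelled libraries (0.121, 0.295 and 0.359 against 1.67, 1.44 and 1.07 RPKM). Its mean was under 1 RPKM, so the main fit did not test it, and it is named because this setting called it. Over all genes limma called between 203 and 293 with 1 library left out.

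Same-numbered libraries of the labels did not clearly deviate together (correlations 0.06, -0.06 and -0.12 over 12037 genes). With only 3 libraries per label, this cannot exclude that the replicate numbers pair them. With the number as a block, limma called 246 of all genes in place of 403, 0 of the other calcium genes (4 at an unadjusted p under 0.05; Plcd3 had an adjusted p of 0.0776) and 0 of the 10.

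The standard error of the log2 fold change had a median of 0.16 over the 10 genes. Their variance had a median of 3.24 times that of counting, and was 0.634 times for Itpr1 and 0.877 times for Stim2. The labels against which Asic3 ran, and the sex of the cells, limit every direction.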
